A study of Homo sapiens with 6 samples.

Results

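NFE2L2, the gene of the transcription factor NRF2, and 8 antioxidant and detoxification genes known as its targets were followed in HCCLM3 cells treated with CC-885. The 9 genes were given as a list (NFE2L2, NQO1, HMOX1, GCLM, GCLC, TXNRD1, SRXN1, AKR1B10 and AKR1C1), and all 9 had a row among the 20263 rows of the count table. HCCLM3 cells derive from a human hepatocellular carcinoma and are used as a model of metastasis. CC-885 is a cereblon modulator: it makes the CUL4 ligase that uses cereblon as its receptor tag new proteins for degradation, GSPT1 of translation termination among them. RNA was sequenced from 3 libraries treated with CC-885 and 3 libraries given the solvent DMSO, with a treatment of 24 h. Both groups are the same cell line in serum-containing medium, with no other agent or allele named, and no dose is stated in the labels. Libraries are called C1 to C3 (CC-885) and D1 to D3 (DMSO). Whether each was a culture of its own is not stated, and the p-values therefore measure the spread between libraries, which may be technical.

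NRF2 is held low in unstressed cells because KEAP1, an adaptor of the CUL3 ubiquitin ligase, captures it for degradation. Electrophiles and oxidants modify KEAP1, NRF2 then accumulates, pairs with a small MAF protein and binds antioxidant response elements near its targets. The repressor BACH1 pairs with the same MAF proteins and occupies many of the same elements, with HMOX1 as its best known target. In liver the program serves glutathione synthesis, thioredoxin recycling and the clearance of drugs, and in liver cancers it is often switched on. Since NRF2 is controlled mainly as a protein, the mRNA of NFE2L2 is no measure of its activity.

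Total counts per library ran from 30432509 to 39809131, so that 0 counts allow a level of up to 0.0754 to 0.0986 CPM (counts-per-million; 3 counts of the total, for counting error only). All CPM values below were scaled with TMM factors, and ± marks the SD of 3 libraries. The libraries were labelled as liver cancer cells, yet ALB, AFP, APOB, TTR and GPC3, which mark hepatocytes or hepatoma cells, had 0 counts in all 6 libraries. In all, 3 of 10 such markers reached a mean of 1 CPM, with a summed level of 1366 to 1658 CPM with CC-885 and 1808 to 2213 CPM with DMSO that came almost wholly from the keratins KRT8 and KRT18. Of the leukocyte markers PTPRC and CD3E were at 0, and the summed level of the 3 was 2.26 to 3.23 CPM with CC-885 and 2.19 to 3.25 CPM with DMSO. The 3 endothelial markers summed to 3.11 to 4.93 CPM against 0.872 to 1.35 CPM, the 3 stromal markers to 151 to 185 CPM against 157 to 187 CPM, and the 3 cholangiocyte markers, nearly all KRT7, to 707 to 891 CPM against 415 to 463 CPM. Of these markers VWF, CDH5, COL1A1 and KRT7 were called higher with CC-885, and KRT8, DCN and PDGFRB lower. Their part in the results was not tested.

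Promoter sequences were searched for letters that match the core of an antioxidant response element close to the start. The core was searched as TGACNNNGC on both strands in the RefSeq promoter table (GRCh38.p14, 250 bases before to 50 bases after each start), where 7 of the 9 genes had an entry, with 9 promoters among them. HMOX1 and AKR1B10 were not analysed here for it. A match stood in the promoters of 2 of the 7, GCLM and TXNRD1. By gene, 2049 of all tested genes with an entry had a match in any promoter and 8649 had none. By promoter, 3 of the 9 matched, beside 13.3% of all 35116 promoters. The matches before the start are shown with 15 bases on each side, read 5′ to 3′ along the gene, and the capitals mark the core. KEAP1 is shown beside GCLM because its promoter holds the same 9 letters in the same orientation, and GSTP1, ME1 and SLC3A2 because theirs hold TGACTCAGC, a form of the core found in 0.561% of promoters that contains the AP-1 element TGANTCA.
GCLM, chr1:93909441-93909479, minus strand: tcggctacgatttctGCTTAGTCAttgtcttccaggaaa
KEAP1, chr19:10502779-10502817, minus strand: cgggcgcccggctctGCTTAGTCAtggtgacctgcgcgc
TXNRD1, promoter 1, chr12:104215665-104215703, plus strand: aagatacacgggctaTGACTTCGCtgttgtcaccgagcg
TXNRD1, promoter 2, chr12:104286915-104286953, plus strand: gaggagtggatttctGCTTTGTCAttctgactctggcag
GSTP1, chr11:67583731-67583769, plus strand: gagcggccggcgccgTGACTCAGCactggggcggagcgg
ME1, chr6:83431165-83431203, minus strand: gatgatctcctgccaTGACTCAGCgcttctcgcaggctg
SLC3A2, promoter 3, chr11:62881647-62881685, plus strand: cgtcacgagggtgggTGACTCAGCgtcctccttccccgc
A match is a run of letters and was not tested as a binding site. Sites farther from the start were not searched, so a gene without a match may still have one. KEAP1, TXNRD1 and ME1 each held 1 further match that is not shown; those of TXNRD1 and ME1 did not lie wholly before the start.

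The 9 genes did not move as a block. Every one was tested, 3 were higher with CC-885 (NFE2L2, TXNRD1 and AKR1B10), 2 were lower (HMOX1 and AKR1C1), and NQO1, GCLC, GCLM and SRXN1 did not pass the test. Of all 13444 genes tested 52.6% were called at an adjusted p below 0.05 (edgeR quasi-likelihood test, Benjamini-Hochberg over all genes), 25.8% as higher and 26.8% as lower, so a count of 5 in 9 (55.6%) is close to the share of all genes. The groups did not overlap in 7 of the 9 genes, against 61.1% of all genes; the CC-885 libraries all lay above the controls in 4 (29.9% of all genes) and all below in 3 (31.2% of all genes). The median log2 fold change of the 9 was -0.11, and that of all genes -0.04. The calls of NFE2L2, HMOX1 and AKR1C1 held under all 14 alternative settings, while those of TXNRD1 and AKR1B10 did not.

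**Figure D1:**
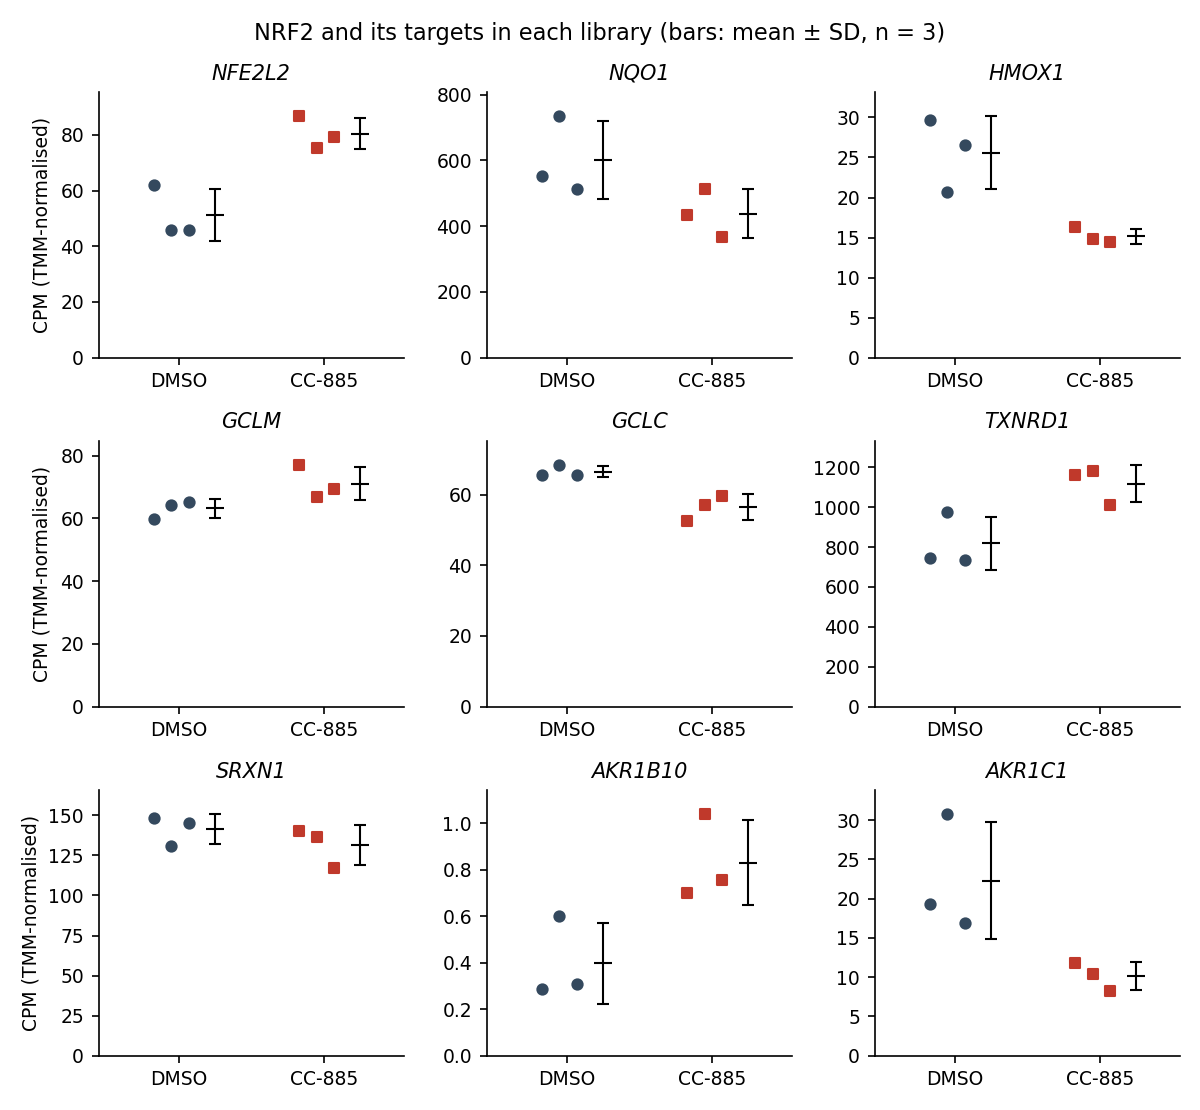
TMM-normalised CPM (vertical axes, from 0) of NFE2L2 and its 8 targets in the 3 DMSO libraries (circles) and the 3 CC-885 libraries (squares), with mean and SD beside them. NFE2L2 lies higher with CC-885 and HMOX1 and AKR1C1 lower in every library, while NQO1 and SRXN1 overlap between the groups.

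NFE2L2 mRNA (ENSG00000116044) rose. It stood at 86.8, 75.5 and 79.4 CPM in the CC-885 libraries and at 61.9, 45.9 and 45.8 CPM in the DMSO libraries. D1 was the highest control and still lay below every treated library. The means were 80.5 ± 5.74 and 51.2 ± 9.29 CPM, a 1.57-fold difference (log2 fold change 0.65, SE 0.15, adjusted p = 0.00313). In bulk RNA a change in the amount per cell and a change in the share of cells that express a gene cannot be told apart. An annotated transcript of another gene, AC019080.1, covers 17.6% of its exonic bases on the same strand, so a part of these counts may not be its own.

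HMOX1 (ENSG00000100292), which encodes heme oxygenase 1, the stress-induced enzyme that opens heme to biliverdin, iron and carbon monoxide, fell. Its levels were 16.3, 14.8 and 14.4 CPM with CC-885 and 29.6, 20.6 and 26.5 CPM with DMSO. The treated libraries were tightly grouped and all lay below the lowest control, D2. HMOX1 was 1.69-fold lower (log2 fold change -0.76, SE 0.16, adjusted p = 0.00213), at 15.2 ± 0.973 against 25.6 ± 4.56 CPM. No other annotated gene shares its exons.

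AKR1C1 (ENSG00000187134), an aldo-keto reductase that inactivates progesterone and reduces reactive carbonyls, fell as well. It was counted at 11.8, 10.4 and 8.22 CPM with CC-885 and at 19.3, 30.8 and 16.9 CPM with DMSO. D2 was far above the other controls, and without it the log2 fold change went from -1.14 (SE 0.23, adjusted p = 0.00245) to -0.82 (adjusted p = 0.00409). The means were 10.1 ± 1.8 and 22.3 ± 7.42 CPM, a 2.2-fold difference. AKR1C2 is a near-identical neighbour whose reads the counting could have shared with it, and AKR1C3 is a more diverged one. AKR1C3 was lower too (1.82 ± 0.506 against 4.41 ± 1.28 CPM, log2 fold change -1.28, adjusted p = 0.00215). AKR1C2 was scarce, at 0.842 ± 0.323 and 1.83 ± 0.789 CPM, and was called lower (-1.13, adjusted p = 0.0286). That call did not survive leaving out C1 (adjusted p = 0.0574), C2 (0.101) or D2 (0.159), nor the replicate number as a block (0.071).

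AKR1B10 (ENSG00000198074), a reductase of retinal and lipid aldehydes that many liver cancers express strongly, was almost silent in these cells. Its raw counts were 21, 40 and 26 in C1 to C3, and 11, 22 and 10 in D1 to D3. If each fragment was counted as a pair of reads, fewer molecules stand behind them. Every treated library was above every control, at 0.699, 1.04 and 0.756 CPM against 0.287, 0.599 and 0.307 CPM, but the lowest treated library and D2 lay close together. The log2 fold change was 1.06 (SE 0.4, adjusted p = 0.0414). The call was lost without any 1 library other than D2 (adjusted p from 0.0544 to 0.166) with the DESeq2 test (0.128), with library size as the only scaling (0.0572) and with no filter on low counts (0.0551). The related AKR1B1, aldose reductase, was not called (125 ± 20.5 against 135 ± 23.4 CPM, log2 fold change -0.1, adjusted p = 0.63), and AKR1B15 had 0 counts in all libraries.

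NQO1 (ENSG00000181019), the quinone reductase most often used as a readout of NRF2, lay on the border of the threshold. It gave 433, 514 and 366 CPM with CC-885 and 553, 734 and 512 CPM with DMSO. The groups touched only through C2, the highest treated library, and D3, the lowest control. Mean levels were 438 ± 73.8 and 600 ± 118 CPM, and the log2 fold change of -0.45 (SE 0.18) had an adjusted p of 0.0532. NQO1 was called lower without C2 (-0.58, adjusted p = 0.0447) or D3 (-0.56, adjusted p = 0.0096). It was also called with library size as the only scaling (0.0362), with the DESeq2 test (0.0317), with the CPM filter of 5 (0.0292), with the replicate number as a block (0.0187) and with halved counts (0.0474). An antisense transcript overlaps 17.7% of its exonic bases, and nothing says whether strand was used in counting.

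GCLC and GCLM encode the catalytic and the modifier subunit of glutamate-cysteine ligase, the enzyme of the rate-limiting step of glutathione synthesis. Neither passed the test, and they leaned to opposite sides. GCLC (ENSG00000001084) stood at 52.5, 57.1 and 59.7 CPM with CC-885 and 65.5, 68.3 and 65.6 CPM with DMSO (a log2 fold change of -0.24, SE 0.12, with an adjusted p of 0.11). GCLM (ENSG00000023909) stood at 76.9, 66.7 and 69.4 CPM with CC-885 and 59.8, 64.4 and 65.3 CPM with DMSO (a log2 fold change of 0.17, SE 0.12, with an adjusted p of 0.257). In both genes the groups did not overlap, by narrow margins in GCLM. GCLC was called with the CPM filter of 5 (-0.30, adjusted p = 0.0466). The ratio of GCLM to GCLC CPM was 1.47, 1.17 and 1.16 in C1 to C3, and 0.913, 0.943 and 0.996 in D1 to D3. This ratio was chosen after the values were seen and carries no test.

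TXNRD1 (ENSG00000198431) encodes thioredoxin reductase 1, a selenoprotein that keeps thioredoxin reduced with electrons from NADPH. Its levels were 1159, 1183 and 1011 CPM with CC-885 and 746, 973 and 734 CPM with DMSO. D2 came near the lowest treated library without reaching it. The log2 fold change was 0.45 (SE 0.16, adjusted p = 0.0378), a 1.37-fold rise from 818 ± 135 to 1117 ± 93.1 CPM. The call was lost without any 1 library other than D2 (adjusted p from 0.0539 to 0.145), with library size as the only scaling (0.0759) and with the CPM filter of 5 (0.0682). Without D2 the log2 fold change was 0.60 (adjusted p = 0.00155).

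SRXN1 (ENSG00000271303), sulfiredoxin, which restores over-oxidised peroxiredoxins, was not called. Its levels of 141, 136 and 117 CPM with CC-885 and 148, 131 and 145 CPM with DMSO overlapped (a log2 fold change of -0.11, SE 0.13, with an adjusted p of 0.507). A readthrough gene of the same strand covers 85% of its exonic bases, and how the counting treated shared reads is not stated.

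D2 was often at the edge of the controls in these genes. Among the controls it was the highest in 5 of the 9 genes (NQO1, GCLC, TXNRD1, AKR1B10 and AKR1C1), and it was the lowest in HMOX1 and SRXN1. Among the treated libraries C1 was likewise the highest in 5 of the 9. How often D2 or C1 was the highest over all genes was not counted. Without D2 NFE2L2 (log2 fold change 0.59, adjusted p = 0.00886) kept its call. Lower genes of the lists below often had D2 as their highest control too. In D1 to D3 RBX1 was at 25.2, 36.2 and 18.3 CPM and GSTP1 at 848, 1059 and 671 CPM, while GGT1 was highest in D1 (55.1 CPM). Without D2 the peroxiredoxins PRDX1 (adjusted p = 0.104) and PRDX5 (0.059) lost their calls, while TXN (0.0022) and GSTP1 (0.0314) kept theirs.

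**Figure D2:**
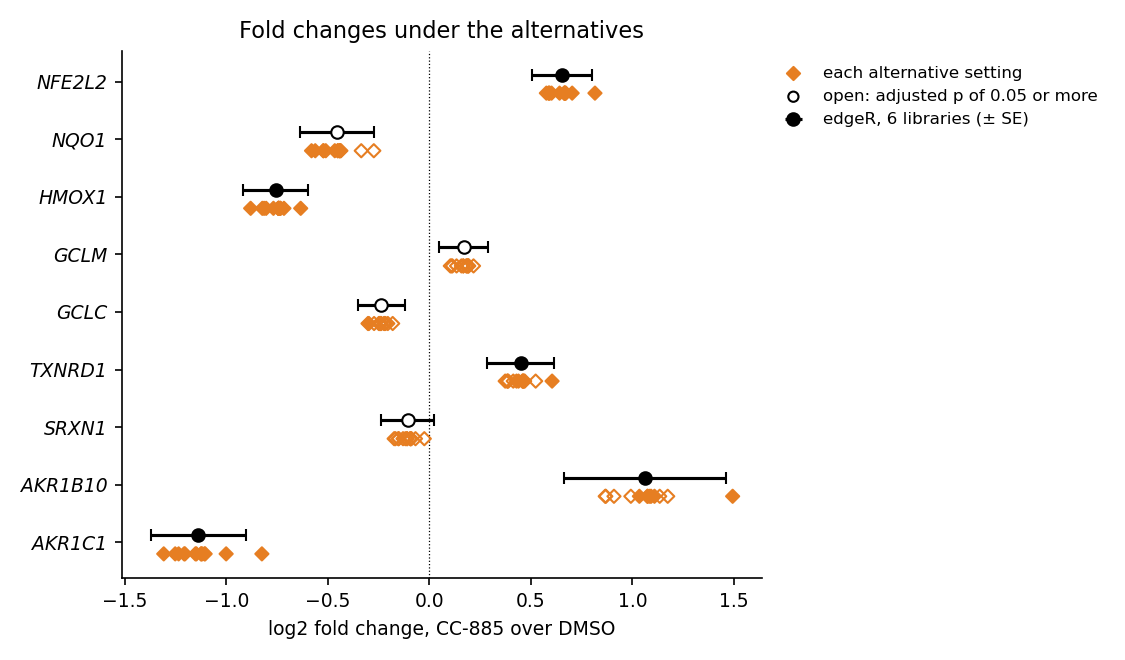
Log2 fold change of CC-885 over DMSO (horizontal axis) of each gene in the edgeR fit of all 6 libraries (circles with SE) and under each alternative setting (diamonds); open symbols have an adjusted p of 0.05 or more. NFE2L2, HMOX1 and AKR1C1 have filled symbols throughout, and no gene changes sign.

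Levels of different genes were compared per length, as CPM per kilobase of the longest principal transcript in GENCODE 29. In the DMSO libraries TXNRD1 (208 ± 34.3) and NQO1 (206 ± 40.6 CPM per kb) were highest and overlapped. SRXN1 followed at 52.4 ± 3.46 CPM per kb. NFE2L2 (18 ± 3.26) and GCLC (17.4 ± 0.424 CPM per kb) overlapped each other, as did HMOX1 (14 ± 2.5) and GCLM (13 ± 0.607 CPM per kb). The ranges of NFE2L2 (16.1 to 21.7) and HMOX1 (11.3 to 16.3 CPM per kb) overlapped as well, while GCLC lay above HMOX1 and GCLM in all 3 libraries. AKR1C1 (3.33 ± 1.11) and AKR1B10 (0.25 ± 0.11 CPM per kb) came last, and the value of AKR1C1 rests on an annotated length of 6.71 kb that a shorter main transcript would raise. With CC-885 the ranges of TXNRD1 (257 to 301) and NQO1 (126 to 176 CPM per kb) no longer overlapped, and NFE2L2 (28.2 ± 2.01) lay above GCLC (14.8 ± 0.957), GCLM (14.6 ± 1.09) and HMOX1 (8.32 ± 0.534 CPM per kb).

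Of 15 genes that set NRF2 activity or share its sites 7 were higher (46.7%) and 3 lower (20%), beside 25.8% and 26.8% of all genes. The median of the 15 was 0.35 on the log2 scale. This list was chosen with earlier results of these data known. KEAP1, the sensor that holds NRF2, fell from 37.7, 36.3 and 37.8 CPM with DMSO to 26.9, 26.9 and 19.99 CPM with CC-885 (a log2 fold change of -0.60, SE 0.15, with an adjusted p of 0.00506). RBX1, the RING subunit of the ligase, was lower in the same comparison (-1.91, adjusted p = 7.42e-05). CUL3 (-0.25, adjusted p = 0.147), the KEAP1-binding autophagy receptor SQSTM1 (0.04, adjusted p = 0.889) and the ligase SYVN1 (-0.19, adjusted p = 0.321) were not called. SYVN1 passed as lower without D2 (-0.32, adjusted p = 0.042). On the second degradation route, in which the kinase GSK3B primes NRF2 for the ligase adaptor BTRC, both mRNAs were higher. BTRC went from 52.7 ± 2.51 to 112 ± 6.68 CPM (1.09, adjusted p = 2.89e-05) and GSK3B from 166 ± 20.3 to 248 ± 8.94 CPM (0.58, adjusted p = 0.00379).

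Among the called genes of this list the 2 repressors had the highest log2 fold changes. BACH1 was at 80.7, 87.2 and 91.2 CPM with CC-885 and 18.7, 22.8 and 20.01 CPM with DMSO, a 4.21-fold rise (log2 fold change 2.08, SE 0.13, adjusted p = 9.25e-07). Its treated libraries lay far above its controls, and HMOX1, its known target, was lower in the same libraries. Whether one bears on the other was not tested. BACH2, its relative of lymphoid cells, was scarce and 6.77-fold higher (3.99 ± 0.295 against 0.587 ± 0.179 CPM, adjusted p = 1.48e-05).

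The small MAF proteins, partners of both NRF2 and BACH1, differed from each other. MAFK rose from 74.1, 79.4 and 60.0 CPM to 295, 307 and 234 CPM (a log2 fold change of 1.97, SE 0.16, with an adjusted p of 4.15e-06), and 18.1% of its exonic bases overlap TMEM184A on the opposite strand. MAFF was at 19.5, 92.0 and 16.6 CPM with CC-885 and 2.51, 6.59 and 7.52 CPM with DMSO (2.95, SE 0.97, adjusted p = 0.0628). C2 set much of that value. Without it the log2 fold change was 1.71 and passed (adjusted p = 0.0345), and MAFF was also called by the DESeq2 test (0.00261) and limma-voom (0.0111). MAFG was at 170, 167 and 39.81 CPM with CC-885 and 131, 142 and 28.8 CPM with DMSO. C3 and D3 were low, and the difference was not called (0.32, adjusted p = 0.781) except with the replicate number as a block (0.36, adjusted p = 0.0314). Without D3 the MAFG value was -0.12 (adjusted p = 0.912).

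Of the NRF2 relatives that bind the same kind of site, NFE2L1, which drives proteasome genes, went from 136 ± 15.7 to 173 ± 6.95 CPM (log2 fold change 0.35, adjusted p = 0.0441). Its call was lost without any 1 library other than D2 (adjusted p from 0.0655 to 0.193), with library size only (0.0909) and with the CPM filter of 5 (0.0909). NFE2L3 was higher (3.05 ± 0.402 against 1.69 ± 0.548 CPM, 0.86, adjusted p = 0.0202), a call lost without C1 (0.0556), C3 (0.0615) or D1 (0.0796). NFE2, the factor of blood cells, was lower at 1.17 ± 0.144 against 3.17 ± 0.761 CPM (-1.43, adjusted p = 0.000747). Under the CPM filter of 5, which keeps genes that reach that level in 3 libraries, 4 of the 15 were higher.

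**Figure D3:**
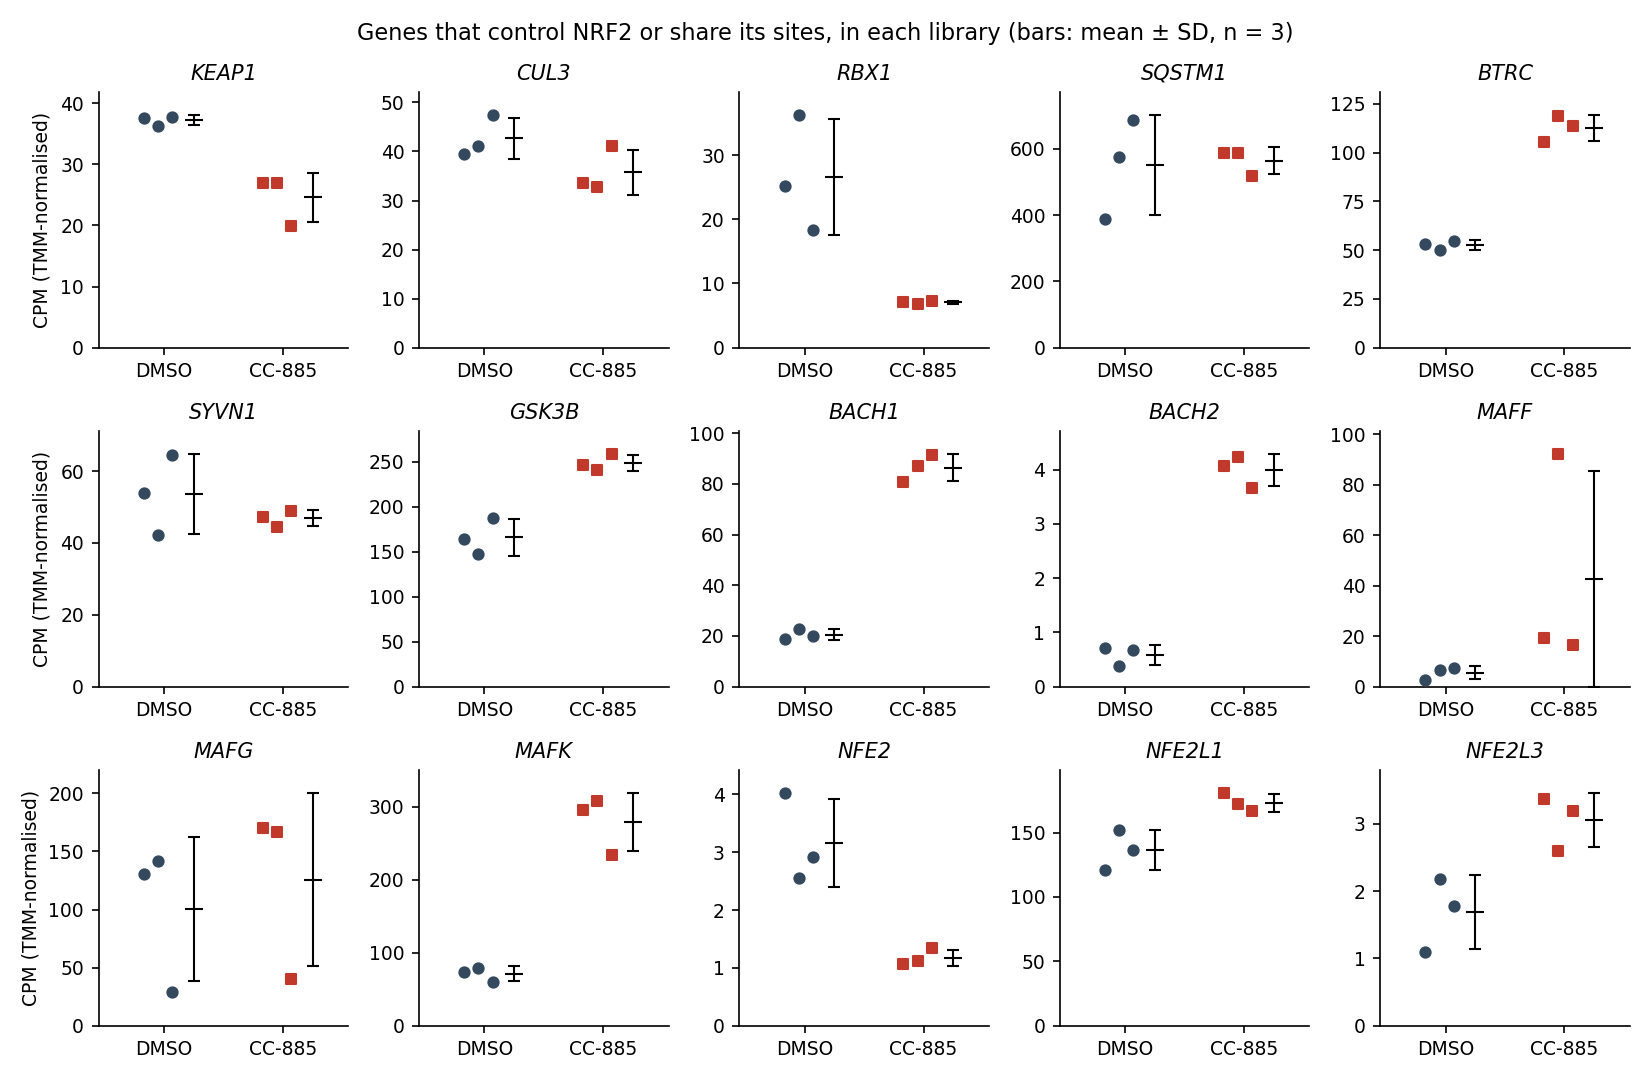
TMM-normalised CPM (vertical axes, from 0) of the 15 genes that control NRF2 or share its sites, in 3 DMSO libraries (circles) and 3 CC-885 libraries (squares), with mean and SD. BACH1, BACH2, MAFK, BTRC and GSK3B lie higher and KEAP1, RBX1 and NFE2 lower with CC-885 in every library, while MAFG is low in replicate 3 of both groups.

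Other antioxidant genes were counted in 8 lists by role. These include the control list above and a list of enzymes outside the NRF2 program. Of the 110 genes in the 8 lists 98 were tested, with a median of -0.29 on the log2 scale. Of the 98 genes 14 were higher (14.3%) and 41 lower (41.8%), beside 25.8% and 26.8% of all genes. In the lists of effectors most called genes were lower. Their share of lower genes ran from 33.3% (heme and iron handling) and 36.4% (glutathione) to 57.1% (the thioredoxin list and the transporters). The counts per list below are to be read beside the 26.8% of all genes. These lists are short, were chosen with earlier results of these data known, and were not tested against other genes. Among lower genes the principal transcript was short in GSTA4 (793 bases), TXN (869) and PGLS (1028), but long in ABCC2 (5806) and ABCC5 (5921). That of the higher genes SLC7A11, TFRC and ALAS1 had 9645, 5111 and 2430 bases. Whether length goes with the calls was not tested.

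Among 22 tested genes of glutathione synthesis and use 8 were lower and 1 was higher (median log2 fold change -0.27). The higher gene was SLC7A11, the cystine importer that feeds glutathione synthesis, at 197 ± 21.4 against 96.9 ± 13 CPM (1.02, adjusted p = 0.000162). The transferase GSTA4, which conjugates lipid aldehydes, was lower (1.59 ± 0.358 against 7.53 ± 2.35 CPM, -2.23, adjusted p = 7.78e-05), as was GGT1, which breaks down extracellular glutathione (30.6 ± 1.78 against 52.1 ± 3.02 CPM, -0.77, adjusted p = 0.000356). Without D3 the list had 2 higher genes.

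In the thioredoxin and peroxiredoxin list 8 of 14 were lower and 2 higher (median -0.63). TXN, thioredoxin itself, was lower at 232 ± 5.63 against 362 ± 57 CPM (-0.64, adjusted p = 0.00336), opposite to its reductase TXNRD1. It is named after its value was seen. TXNRD3, a reductase known from testis, was lower (-1.26, adjusted p = 0.000474). The sestrins parted, with SESN1 lower (10.4 ± 0.412 against 29.1 ± 5.76 CPM, -1.48, adjusted p = 3.29e-05) and SESN2 higher (74.4 ± 6.58 against 42.7 ± 5.33 CPM, 0.80, adjusted p = 0.00056). TXNIP, the inhibitor of thioredoxin, was higher (0.42, adjusted p = 0.0292), a call lost without C2 (0.129), C3 (0.057), D1 (0.0811) or D3 (0.0845), with library size only (0.0645) and with the CPM filter of 5 (0.0558). Without C3 the list had 4 lower genes, and it had 1 higher gene without C2, D1 or D3.

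The pathways that supply NADPH had 3 of 7 genes lower and 0 higher (median -0.29). PGD (-0.02, adjusted p = 0.943), TALDO1 (0.04, 0.83), ME1 (0.04, 0.783) and TKT (-0.29, 0.197) were not called. TKT passed as lower without D2 (-0.44, adjusted p = 0.0061). PGLS, of the pentose phosphate pathway, went from 66.1 ± 5.71 to 33.7 ± 1.01 CPM (-0.97, adjusted p = 7.91e-05) and IDH1, cytosolic isocitrate dehydrogenase, from 156 ± 26.6 to 94.5 ± 4.31 CPM (-0.73, adjusted p = 0.00146). Among 18 tested reductases and other detoxifying enzymes 9 were lower and 1 was higher (median -0.42). ALDH3A1, an aldehyde dehydrogenase, went from 43 ± 6.78 to 8.12 ± 1.22 CPM (-2.41, adjusted p = 1.82e-06), and AKR7A2, a reductase of aldehydes, from 51.5 ± 6.23 to 28.5 ± 4.72 CPM (-0.85, adjusted p = 0.00087). The lipase ABHD4 was the higher gene (0.45, adjusted p = 0.0215). Its call was lost without C1 (0.0601), C2 (0.0529) or C3 (0.0529). The list had 0 higher genes without C1 or C2, and 2 without D3.

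Of 7 transporters for drugs and conjugates 4 were lower and 0 higher (median -0.66). ABCC2, the canalicular pump for glutathione conjugates and bilirubin, went from 180 ± 4.45 to 76.2 ± 5.91 CPM (-1.24, adjusted p = 1.54e-05), and ABCC5 from 110 ± 7.41 to 42.5 ± 3.99 CPM (-1.37, adjusted p = 9.73e-06). In the list of heme and iron handling 3 of 9 tested were lower and 2 higher (median -0.37). The transferrin receptor TFRC rose 3.09-fold (663 ± 40.7 against 214 ± 52.3 CPM, adjusted p = 3.19e-05) and ALAS1, which starts heme synthesis in liver, 2.14-fold (191 ± 6.61 against 88.9 ± 17.9 CPM, adjusted p = 0.000183). FECH, the last enzyme of heme synthesis (-0.53, adjusted p = 0.00666), and BLVRA, which reduces the biliverdin that HMOX1 makes (-0.56, adjusted p = 0.0328), were lower. The call of BLVRA was lost without C1 (0.0645), C3 (0.123), D1 (0.0682) or D2 (0.135) and with limma-voom (0.0542). The list had 1 lower gene without C1, C3 or D1.

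Superoxide and peroxide enzymes outside the NRF2 program had 3 of 6 tested genes lower and 1 higher (median -0.48). SOD2, the mitochondrial superoxide dismutase that NF-kB induces, rose 3.3-fold from 45.9 ± 4.46 to 151 ± 12.2 CPM (adjusted p = 2.87e-06). Catalase, CAT, went from 126 ± 16.3 to 79.3 ± 4.66 CPM (-0.67, adjusted p = 0.00158), and MSRB1, a selenoprotein that repairs oxidised methionine, from 49.6 ± 8.84 to 21.1 ± 2.31 CPM (-1.23, adjusted p = 9.14e-05).

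**Figure D4:**
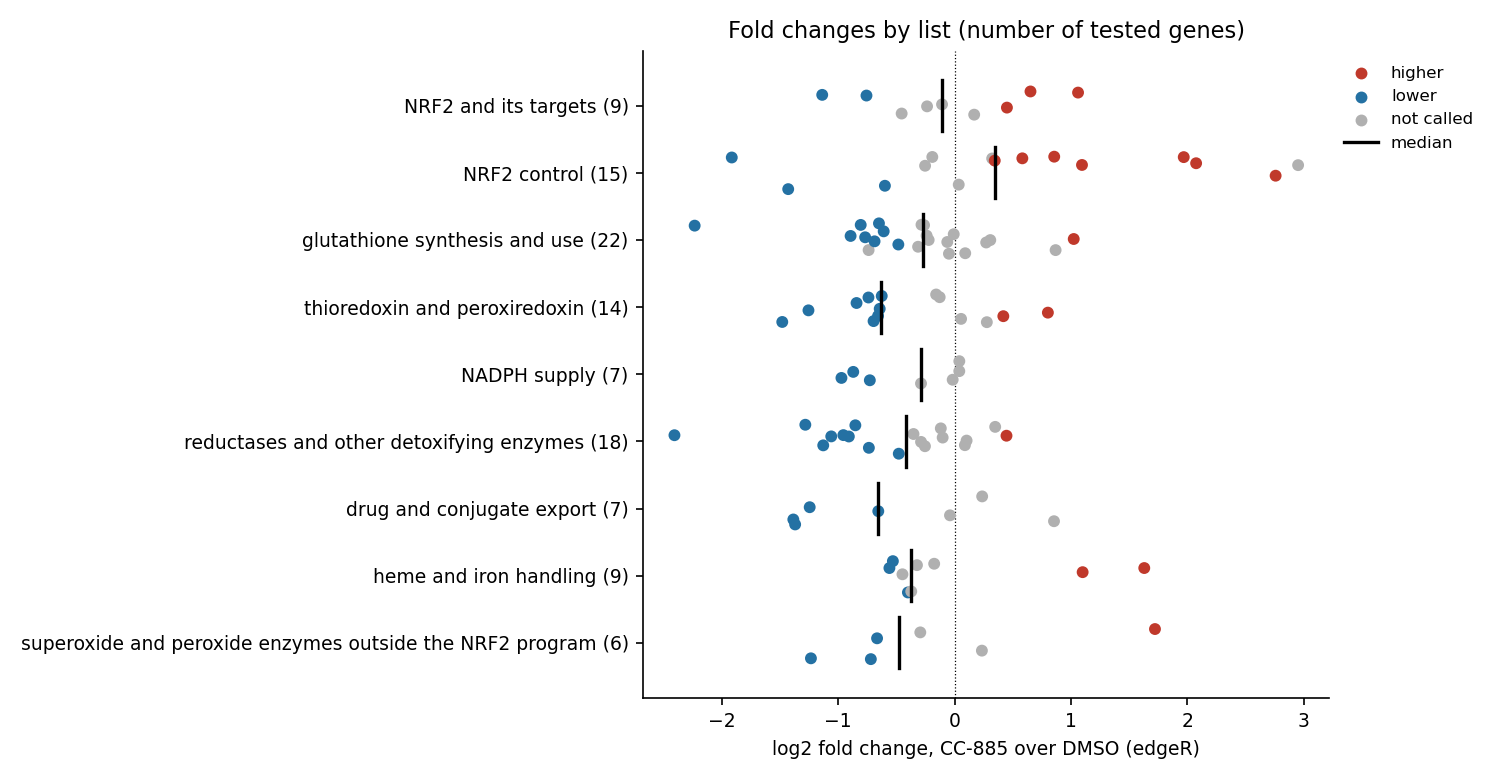
Log2 fold change of CC-885 over DMSO (horizontal axis) of every tested gene in the 9-gene set and the 8 lists; each point is a gene, coloured by its call, and the bar is the median. The control list has its median above 0 (0.35), and the other 7 lists have theirs below 0 (-0.63 for the thioredoxin list).

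The genes with the printed promoter matches went in different directions. TXNRD1 was higher and GCLM not called, while KEAP1, with the same core as GCLM, was lower. With the TGACTCAGC form, the glutathione transferase GSTP1 was lower (548 ± 80.8 against 859 ± 194 CPM, -0.65, adjusted p = 0.0137; adjusted p = 0.0795 without C3), and ME1 (0.04, adjusted p = 0.783) and SLC3A2 (0.31, adjusted p = 0.106) were not called. PIR, an iron-binding nuclear protein whose match does not lie wholly before the start and is not shown, was lower (70.2 ± 3.46 against 117 ± 19.1 CPM, -0.74, adjusted p = 0.00118), so that 2 of the 4 tested list genes with this form were lower. Besides the 9, of 22 tested list genes with a core match in a promoter 16 were lower and 0 higher, and of 55 list genes with a promoter entry and no match 19 were lower (34.5%) and 11 higher. Over all genes the core went with no such split, since 27.2% of 2049 tested genes with a match were lower and 26.6% higher, against 26.5% and 26.5% of 8649 without one. The list genes were grouped by the motif after their values were known, and this count carries no test.

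The genes most like NFE2L2 and HMOX1 over the 6 libraries were found by the Pearson correlation of log2 CPM among 10648 genes with a mean of at least 5 CPM. For NFE2L2 they were ACVR2B (r = 0.99), an activin receptor, ABLIM3 (0.988), an actin-binding protein, and SLC43A1 (0.986), an amino acid transporter. Their log2 fold changes were 0.37, 0.64 and 0.63. For HMOX1 they were the kinase PTK2B (r = 0.999), the membrane transporter FLVCR2 (0.998) and the mitochondrial flavoprotein AIFM1 (0.998), with -0.58, -0.80 and -0.40. A correlation of at least 0.95 was reached by 53 genes for NFE2L2 and by 513 for HMOX1. With 2 groups of 3 libraries such values mostly follow the group difference. The call of ACVR2B was lost without any 1 library other than D2 (adjusted p from 0.0511 to 0.0969), with library size only (0.0674) and with the CPM filter of 5 (0.0678), and that of AIFM1 without C1 (0.0505), C2 (0.0802), C3 (0.0714) or D1 (0.1).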

How the data were processed

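RNA was sequenced from HCCLM3 cells with an mRNA kit; no strand setting is stated. The authors deposited whole-number counts per gene and library, not normalized, as the values show. The aligner and counter: not given in the sources used here. Per the submitters' processing notes the builds were GRCm38 and mm10, which are mouse, but all 20263 identifiers are human Ensembl genes; 20148 took names from a gene table and 76 from GENCODE 29. Totals were 30432509 to 39809131 counts, and 66.2% of counts from 1 to 19 were even. Many fragments may thus have been counted as 2 reads, which is not stated; low counts would then stand for fewer molecules, and the level that 0 counts allow would be higher than printed.

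CC-885 and DMSO libraries were compared with edgeR 4.0.16 (R 4.3.3): TMM, filterByExpr (minimum count 10), robust quasi-likelihood test, no covariate, Benjamini-Hochberg over 13444 genes, threshold 0.05. SE was approximated as the size of the log2 fold change divided by the root of F. On simulated data with known changes more than the nominal share of calls was false. This held with the first simulation and after its dispersions were changed. Far fewer genes were changed there than were called here, so the false share need not carry over. A call near the threshold is still to be read as weak. Alternatives were DESeq2 scaling, plain library size, DESeq2 1.42.0 (Wald), limma-voom (limma 3.58.1), no filter, a CPM minimum of 5 in 3 libraries, a replicate block, each library left out and, added after seeing the data, halved counts. Overlaps come from GENCODE 29, promoters from RefSeq (GRCh38.p14).

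The members and lists were chosen with earlier results of these data known. Named are the 9 genes, near copies, the control list, up to 2 higher and 2 lower called genes of smallest p per list, and the 3 genes closest in pattern to NFE2L2 and HMOX1. TXN, GSTP1, PRDX1, PRDX5, PGD, TKT, TALDO1, ME1, SLC3A2 and PIR were named after their values were seen.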

Additional observations from a re-analysis of the deposited data

How the results depend on the processing

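The count of higher genes among the 9 was 1 in place of 3 with library size only and with the CPM filter of 5, and ranged from 1 to 3 with a library left out, since TXNRD1 and AKR1B10 lie near the threshold. Where 1 was left, it was NFE2L2. The count of lower genes was 4 in place of 2 with the CPM filter of 5, where NQO1 and GCLC also passed, and 2 to 3 with a library left out. AKR1B10 was not tested under that filter. HMOX1 ranged from -0.88 to -0.63 and NFE2L2 from 0.58 to 0.82 over the alternatives. The counts over all genes and over the 8 lists together stayed within 1.5 times under all 14 settings, and all 9 genes kept their sign. The DESeq2 size factors moved the median gene by 0.01 and library size only by -0.06 (log2).

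The labels do not say that a replicate number marks a shared culture or day. The deviations of same-numbered libraries from their group means correlated at 0.0958, 0.0311 and 0.0722, all above 0 but weak. C1 correlated best with D1 and C3 with D3, while C2 did so about equally with D1 (0.0373) and D2. The mitochondrial share of counts ranked alike by replicate number in both groups. It was 5.30%, 4.83% and 6.16% in C1 to C3, and 5.96%, 4.29% and 8.16% in D1 to D3. The summed share of NFE2L2 and its listed targets ranked alike too (0.195%, 0.199% and 0.170%, against 0.172%, 0.218% and 0.159%). TXNRD1 and NQO1 make up most of that sum, and rankings of 3 libraries can match by chance. MAFG was low in C3 and D3. Whether the numbers mark pairs was not tested further. With the replicate number as a block, NFE2L2 was at 0.67 (adjusted p = 0.00176), TXNRD1 at 0.46 (0.0252), AKR1B10 at 1.09 (0.0416), AKR1C1 at -1.10 (0.00114) and NQO1 at -0.45 (0.0187, now past the threshold); MAFG also passed and AKR1C2 lost its call.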
